A study of Bos taurus with 6 samples.

Results

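The genes described here are 200 whose expression fell, in lactating Holstein heifers, as milk protein transcripts took up more of the mammary gland RNA. They had the strongest negative linear correlation with that part of the RNA among 9253 genes in a set range of expression, out of 24579 counted. They were chosen by a correlation in these same counts. The counts of 6 milk protein genes were summed in each heifer and divided by the heifer's total to give the milk protein share. Those 6 genes were then set aside, and every other gene was expressed as CPM, its counts scaled to the same total in each heifer over the remaining genes. Of the 9307 genes with a mean of at least 10 and below 500 CPM, 54 that the text of the study names were left out. Only genes with a symbol (375 of 24579) could be matched to the text, so others that it names may remain. The 9253 genes left are the CPM range, or window. The 200 members were its genes with the lowest Pearson correlation between log2(CPM + 1) and the milk protein share. The correlation is therefore what selected the members and is given below as a description, without a test.

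Mammary tissue was biopsied at 21 days into the first lactation, in 2016, from 6 heifers born in 2014. Dams of the in utero heat stressed heifers (IUHT-H: 9196, 9203 and 9204) had shade but no active cooling during the last 6 to 7 weeks of gestation. Dams of the in utero cooled heifers (IUCL-H: 9202, 9214 and 9223) had shade, fans and water soakers, and all heifers were managed together after birth. Each heifer is a separate animal with 1 RNA library, and a further IUCL-H of the study was not analysed here.

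Milk proteins are secreted by the epithelial cells that line the mammary alveoli. During lactation these cells devote most of their messenger RNA to a small set of caseins and whey proteins, under the control of prolactin, glucocorticoids and insulin. A biopsy also holds myoepithelial cells, fibroblasts, blood vessels, fat cells and leukocytes. The RNA outside the milk protein genes comes from these cells and from the other genes of the epithelial cells. In such bulk tissue, fewer cells of a type and less RNA per cell cannot be told apart. The deposited counts carry Ensembl identifiers only, and the tables used here paired symbols with 375 of the 24579 genes, none of them a member. The members are therefore described by their levels and by rank, with 2 identifiers, and neither their functions nor cell type markers among them could be listed.

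The 6 milk protein genes took up between 62.6% and 72.4% of all counts. The share was 62.6% in IUHT-H 9203, 63.7% in IUHT-H 9196, 65.1% in IUCL-H 9202, 69.8% in IUCL-H 9223, 70.1% in IUCL-H 9214 and 72.4% in IUHT-H 9204. The heifers were not evenly spaced along this scale. The step from IUCL-H 9202 to IUCL-H 9223 covered 4.68 of the 9.75 percentage points between the extremes, and IUHT-H heifers stood at both ends. The share averaged 66.2% ± 5.35 in IUHT-H and 68.3% ± 2.79 in IUCL-H (SD, n = 3 each), a difference of -2.05 percentage points (two-sided exact permutation test, P = 0.7, where 3 against 3 heifers cannot go below 0.1).

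Together the 200 members held a small and steadily decreasing part of the RNA outside the milk protein genes. In order of rising milk protein share, they made up 1.33% of the remaining counts in IUHT-H 9203, 1.29% in IUHT-H 9196, 1.19% in IUCL-H 9202, 0.955% in IUCL-H 9223, 0.935% in IUCL-H 9214 and 0.859% in IUHT-H 9204. The milk protein counts are not part of the denominator of these percentages. The 200 genes with the highest correlations in the same CPM range went from 1.47% of the remaining counts in IUHT-H 9203 to 2.08% in IUHT-H 9204.

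Set against its own mean over the heifers, the median member stood 0.27 above on the log2(CPM + 1) scale in IUHT-H 9203, 0.25 above in IUHT-H 9196 and 0.15 above in IUCL-H 9202. The median member was at -0.16 in IUCL-H 9223, -0.19 in IUCL-H 9214 and -0.32 in IUHT-H 9204. The same medians over all 9253 genes of the CPM range lay between -0.05 in IUHT-H 9204 and 0.06 in IUHT-H 9196. The median member was thus above its mean in 3 heifers and below it in 3, separated where the milk protein share itself made its largest step.

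**Figure D1:**
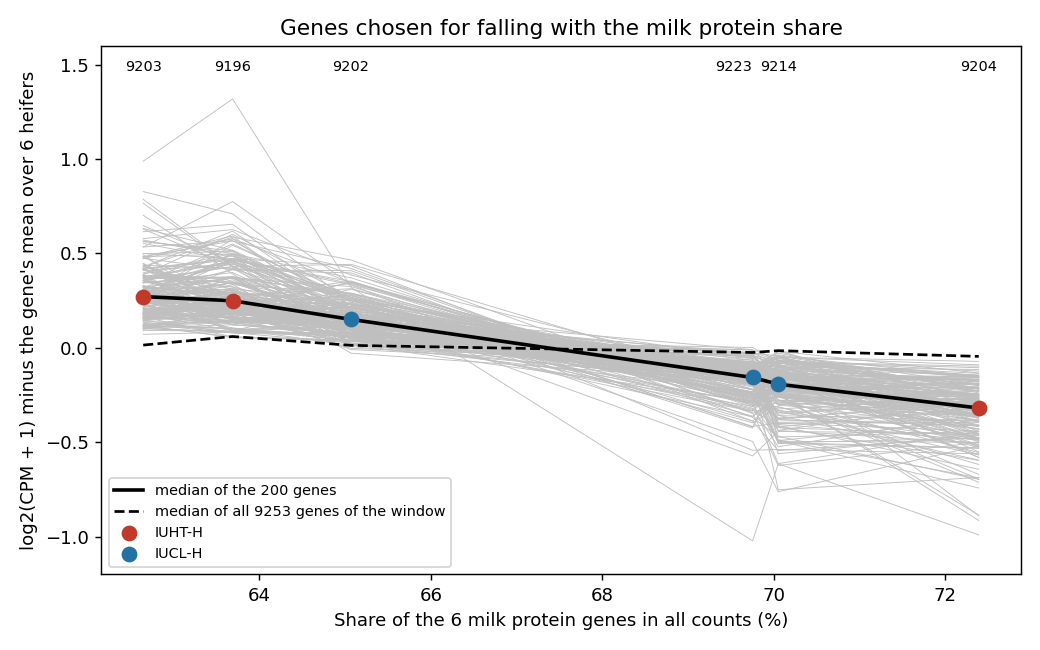
Each of the 200 members is a thin line of log2(CPM + 1), set against its own mean over the 6 heifers (vertical axis), against the milk protein share of each heifer in % (horizontal axis), with the median of the members and the median of all 9253 genes of the CPM range drawn over them. The median of the members goes from 0.27 at a share of 62.6% to -0.32 at 72.4%, whereas the median of all genes stays between -0.05 and 0.06.

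Not every step along the scale was shared by the members. All 200 were higher in IUCL-H 9202 than in IUCL-H 9223, with a median step of 0.31 on the log2(CPM + 1) scale, against 55.4% of the genes in the CPM range. From IUHT-H 9196 to IUCL-H 9202 there was a fall in 173 members (86.5%, against 61.4% of the CPM range), with a median step of 0.09, and from IUCL-H 9214 to IUHT-H 9204 in 167 members (83.5%, against 54.3%), with a median step of 0.10. At the low end, 106 members (53.0%) were higher in IUHT-H 9203 than in IUHT-H 9196, against 39.7% of the CPM range, and the median step was 0.01 in the members and -0.05 in the CPM range. From IUCL-H 9223 to IUCL-H 9214, 114 members (57.0%) fell, against 49.4% of the CPM range, and the median step was 0.02. These IUCL-H differed by 0.07 (log2, without regard to sign) in the median member and by 0.16 in the median gene of the CPM range. The selection itself favours a fall across wide steps of the share and little difference across narrow ones. The counts by step here and by heifer below are therefore descriptions of the selected genes.

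The highest value of a member was in IUHT-H 9203 for 103 genes, in IUHT-H 9196 for 88 and in IUCL-H 9202 for 9. The lowest value was in IUHT-H 9204 for 155 members, in IUCL-H 9214 for 30 and in IUCL-H 9223 for 15. Among all genes of the CPM range, IUHT-H 9204 had the lowest value in 22.6%. In 34 members the 6 heifers fell in exactly the reverse order of the milk protein share (Spearman's rho of -1), and 57 genes of the CPM range (0.616%) did so in all. The other members ranged up to a rho of -0.66, with a median of -0.94 over the 200.

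Inside each treatment group, 1 heifer stood apart in every member. All 200 members were lowest in IUHT-H 9204 among the IUHT-H (50.4% of the CPM range), and 106 fell at each step from IUHT-H 9203 through IUHT-H 9196 to IUHT-H 9204, against 19.9% of the genes in the CPM range. The median difference between IUHT-H 9203 and IUHT-H 9204 was 0.61 (log2) in the members and 0.06 in the CPM range. All 200 members were highest in IUCL-H 9202 among the IUCL-H (40.9% of the CPM range), and 114 fell at each step from IUCL-H 9202 through IUCL-H 9223 to IUCL-H 9214, against 22.3% of the genes in the CPM range. The median difference between IUCL-H 9202 and IUCL-H 9214 was 0.35 (log2) in the members and 0.02 in the CPM range. All of these heifers entered the correlation that selected the members, so neither group is a check on the other.

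The correlations of the members with the milk protein share ran from -0.996 to -0.942, with a median of -0.958 over 6 heifers. The limit cut through a continuous distribution. The 3 members just inside it had correlations of -0.94206, -0.94198 and -0.94182, and the 3 genes just outside it had -0.94174, -0.94168 and -0.94139. Over all 9253 genes of the CPM range the median correlation was -0.225, and 5562 genes (60.1%) lay below 0. That majority depended on the scaling, since over the same genes 42.3% lay below 0 with TMM-scaled CPM, 48.6% after each heifer was centred on the median of the range and 94.8% with CPM over the whole total, settings chosen after seeing the data. With the scaling of the selection, the opposite end of the distribution held fewer such genes. There, 64 genes had a correlation as strong as the weakest member but positive, and the 200th highest correlation was 0.891. The positive end was not counted under the other scalings, where the 200th lowest correlation lay between -0.985 and -0.918.

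**Figure D2:**
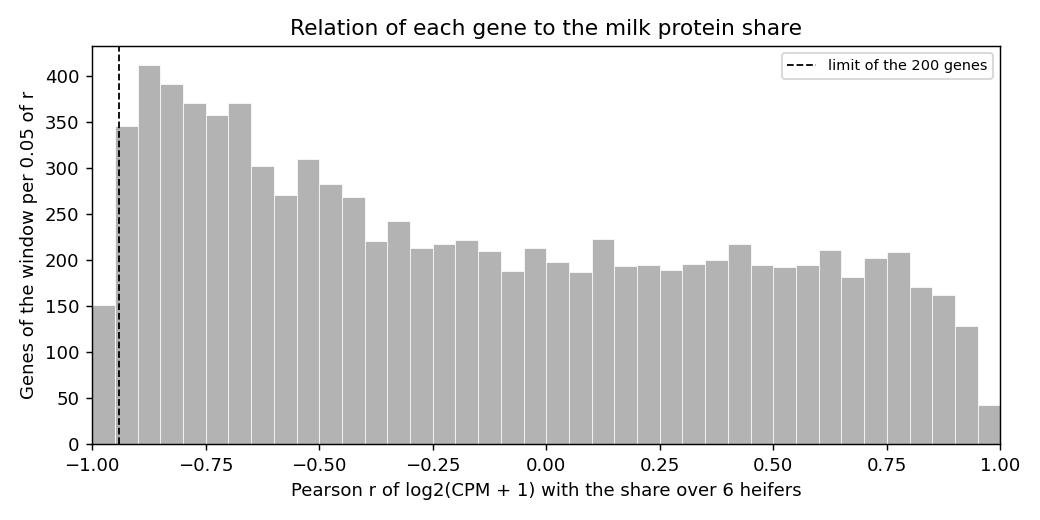
Number of genes (vertical axis) by Pearson correlation of log2(CPM + 1) with the milk protein share over 6 heifers (horizontal axis), for the 9253 genes with a mean of at least 10 and below 500 CPM, with the limit of the 200 members drawn as a dashed line. The members occupy the left edge, from -0.996 to -0.942, and the median of all genes is at -0.225.

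The 2 members with the lowest correlations showed the pattern at different levels of expression. ENSBTAG00000032518 had 60.9 CPM in IUHT-H 9203, 59.1 in IUHT-H 9196, 55.9 in IUCL-H 9202, 46.2 in IUCL-H 9223, 43.6 in IUCL-H 9214 and 40.5 in IUHT-H 9204. It fell at every step and was 1.51-fold higher in the heifer of lowest than in the heifer of highest share, as a ratio of CPM. ENSBTAG00000024539 had 19.5, 18.8, 17.1, 13.6, 12.6 and 11.1 CPM in the same order of heifers. It also fell at every step, by 1.76-fold from end to end.

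A further 2 members, picked after their values were seen, mark the extremes of level and of size. The most abundant member had 796.2 CPM in IUHT-H 9203, 623.1 in IUHT-H 9196, 492.1 in IUCL-H 9202, 357.6 in IUCL-H 9223, 386.2 in IUCL-H 9214 and 284.2 in IUHT-H 9204. Only IUCL-H 9223 and IUCL-H 9214 were out of order, and the end-to-end difference was 2.80-fold. The member with the largest end-to-end difference, 4.18-fold, had 52.4, 66.1, 32.6, 12.2, 16.6 and 12.5 CPM in the same order of heifers. Its values split into 3 heifers at or above 32.6 CPM and 3 at or below 16.6 CPM, and neither its highest nor its lowest value lay at an end of the share scale.

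**Figure D3:**
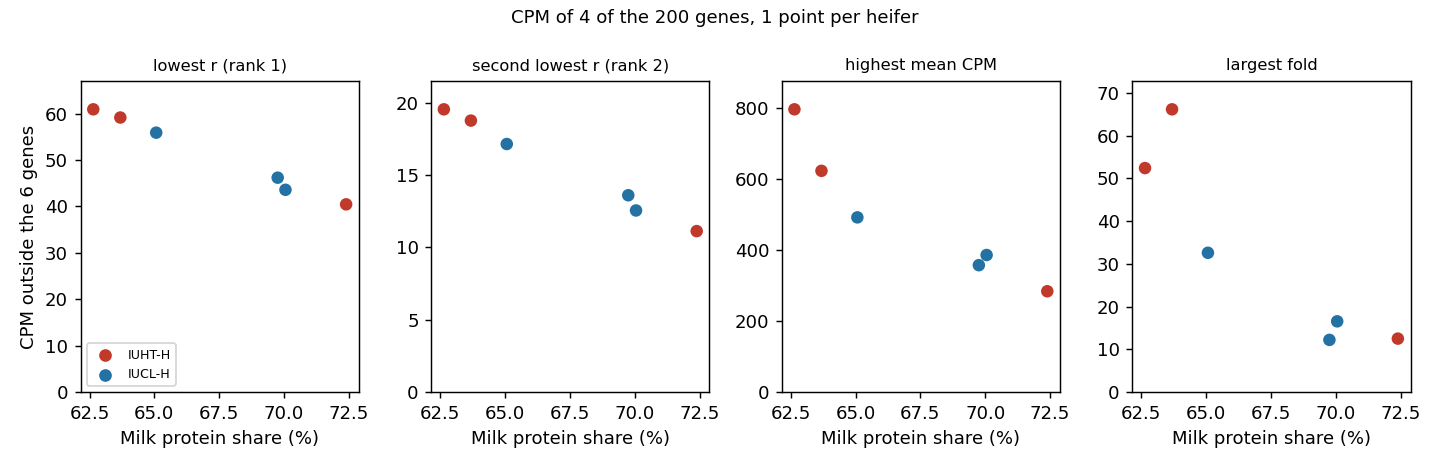
CPM outside the 6 milk protein genes (vertical axes, starting at 0) against the milk protein share in % (horizontal axes) for 4 members, namely the 2 with the lowest correlations, the most abundant one and the one with the largest end-to-end difference, with 1 point per heifer. ENSBTAG00000032518 goes from 60.9 to 40.5 CPM and ENSBTAG00000024539 from 19.5 to 11.1 CPM.

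Most members moved by modest amounts. The median member was 1.55-fold higher in IUHT-H 9203 than in IUHT-H 9204, or 0.61 on the log2(CPM + 1) scale (quartiles 0.44 and 0.79), and single members ranged from 0.16 to 1.98. At least 2-fold was reached by 25 members, and the smallest end-to-end difference of a member was 1.12-fold. The median gene of the CPM range differed by 1.04-fold between these heifers, and 180 of 9253 genes were at least 2-fold higher in IUHT-H 9203. Expressed per 10 percentage points of milk protein share, the median member changed by -0.66 (log2), from -2.44 to -0.20. The standard deviation over the 6 heifers was 0.27 (log2) in the median member, 0.17 in the median gene of the CPM range and 0.19 in the median of the 200 genes that rose with the share.

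The members were mostly genes of low to moderate level. Their median of the mean CPM was 32.4, against 40.0 over the CPM range and 67.6 for the 200 rising genes, on a scale that is not corrected for gene length. Of the members, 135 were below 50 CPM and 23 were at or above 100 CPM. Genes at 10 to 20 CPM supplied 53 members (2.55% of the 2078 genes at that level), genes at 20 to 50 CPM supplied 82 (2.43% of 3380), genes at 50 to 100 CPM supplied 42 (1.96% of 2140) and genes at 100 to 500 CPM supplied 23 (1.39% of 1655). The median end-to-end difference was 1.73-fold at 10 to 20 CPM, 1.56-fold at 20 to 50, 1.38-fold at 50 to 100 and 1.48-fold at 100 to 500. Of the members that reached 2-fold, 14 were in the lowest of these levels. No member had fewer than 123 counts in any heifer, and the median member count was between 549.5 in IUHT-H 9204 and 1159.5 in IUHT-H 9203.

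The shares of the 6 milk protein genes, taken singly, did not all follow the summed share equally closely. Ordered by abundance, the first, with 20.3% to 24.9% of all counts, the second, with 17.2% to 20.4%, and the sixth, with 3.12% to 4.18%, had correlations with the summed share of 0.951, 0.864 and 0.895, respectively. The share taken by the third had a correlation of 0.511 and that of the fifth of 0.287. The fourth, with 6.16% to 8.51% of all counts, had a correlation of -0.048 with the sum. Each single share is a part of the sum, so its correlation with the sum is fixed in part. As the members were selected on the sum of these shares, their correlations with the single shares are tied to these values. Their median correlation was -0.905 with the share of the first gene, -0.850 with the second and -0.832 with the sixth, but -0.531 with the third and -0.342 with the fifth, all 200 members being below 0 in each case, against 55.8% to 60.5% of the CPM range. With the share of the fourth gene their median correlation was 0.090, and 60 members were below 0, while 49.4% of the CPM range was. These are descriptions over 6 heifers, and the 6 shares have the same denominator.

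Other properties of the libraries also varied between the heifers, and their correlations with the milk protein share differed in strength. Total counts lay between 75754791 and 101361294, and their correlation with the milk protein share was 0.587. The counts outside the 6 genes lay between 23458119 in IUHT-H 9204 and 32029021 in IUCL-H 9202, with a correlation of -0.496. The 258 genes at or above 500 CPM held 34.8% to 38.6% of the counts outside the 6 genes, with a correlation of 0.883. When each gene was set against the median of the CPM range in its heifer before the correlation was computed, a choice made after seeing the data, 167 of the 200 members were selected again. The parts that these properties and the cell makeup of the biopsies have in the members' decrease were not tested.

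The maternal treatment was the comparison for which the study was designed. None of the 200 members passed the study's unadjusted cut-off of 0.01 between IUHT-H and IUCL-H in edgeR's quasi-likelihood test, which 63 of the 14724 genes tested did (0.428%) and 33 of the 9253 genes in the CPM range (0.357%). No member was below an unadjusted p of 0.05 either, against 374 of all genes (2.54%). The smallest unadjusted p-value among them was 0.085, for a member with a log2 fold change of 0.72 (SE 0.36), and the smallest adjusted p-value was 0.999. The cut-off was not passed by a member in DESeq2 (0.843% of all genes), in edgeR's likelihood ratio test (0.761%) or in its exact test (0.733%) either. The selection bears on all of these counts. It placed IUHT-H 9204 below the other IUHT-H in every member, which widens the spread within IUHT-H, so nothing is read from the absence of calls.

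The direction of these differences was nevertheless uneven. The log2 fold change (IUHT-H over IUCL-H) was above 0 in 188 members (94.0%), with a median of 0.12 (quartiles 0.05 and 0.21) and a range from -0.03 to 1.04. In the CPM range it was above 0 in 45.7% of genes, with a median of -0.02, and the median over all genes tested was 0.003. Since the milk protein share chose the members and was 2.05 percentage points lower on average in IUHT-H, this direction is not independent of the selection. It also depended on which heifers were included. The log2 fold change was above 0 in 116 members without IUHT-H 9203 and in all 200 without IUHT-H 9204. The median of the CPM range was then -0.01 and -0.04, respectively. ENSBTAG00000032518 had a log2 fold change of 0.10 (SE 0.15) and ENSBTAG00000024539 of 0.15 (SE 0.21), both with an adjusted p-value of 0.999 in the quasi-likelihood test. With the milk protein share as a covariate in the fit, the median log2 fold change of the members was -0.005 and 93 of 200 were above 0, but the members were selected to follow this covariate and nothing is read from that value.

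**Figure D4:**
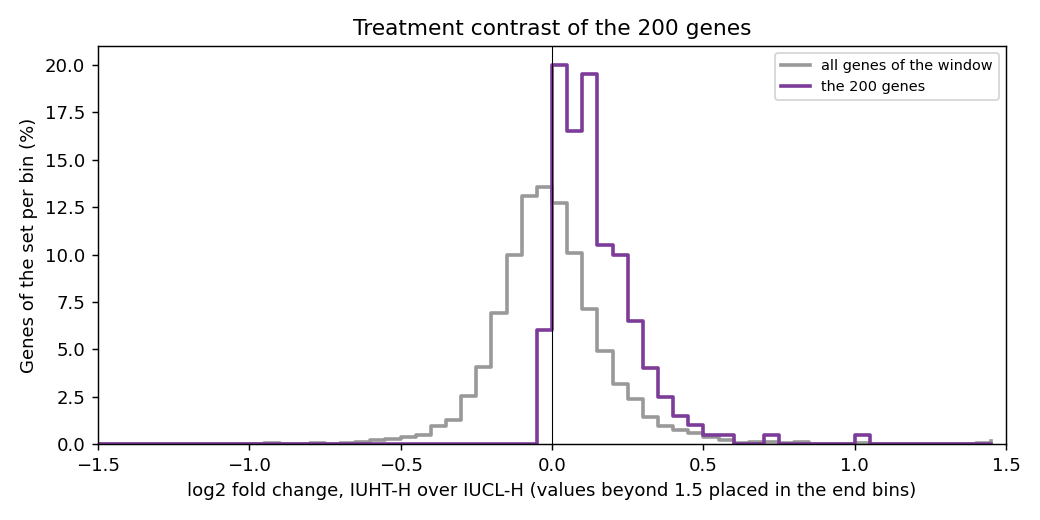
Distribution of the log2 fold change between IUHT-H and IUCL-H (horizontal axis) from edgeR's quasi-likelihood fit for the 200 members and for the 9253 genes of the CPM range, as the percentage of genes in each set (vertical axis). The members lie between -0.03 and 1.04 with a median of 0.12, and the genes of the CPM range have a median of -0.02.

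The groups overlapped in all 200 members. They were separate in 892 of all genes tested (6.06%) and in 505 genes of the CPM range (5.46%), but the overlap in the members was set by the selection, because IUHT-H heifers stand at both ends of the share. The same holds for the spread within the groups. On the log2(TMM-scaled CPM + 1) scale, the standard deviation was 0.26 within IUHT-H and 0.15 within IUCL-H in the median member, and it was larger in IUHT-H in 192 members and in 48.2% of the CPM range. These counts changed most when IUHT-H 9204 was left out. Without IUHT-H 9204, 11 members passed the cut-off of 0.01, all higher in IUHT-H (0.897% of the CPM range was called in that direction), and the groups were separate in 113 members, all higher in IUHT-H (9.70% of the CPM range). The smallest adjusted p-value was then 0.564. Counted in either direction, the groups were separate in 3 members without IUHT-H 9203 (10.5% of the CPM range) and in 9 without IUCL-H 9202 (26.1%). Without IUHT-H 9204, the IUHT-H heifers left had lower milk protein shares than every IUCL-H heifer, so treatment and share cannot be told apart there. The members were selected to fall with the share. Their direction and separation there were therefore largely set by the selection, and nothing is read from these counts.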

How the data were processed

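The authors extracted RNA with RNeasy Plus Universal kits and sequenced NEBNext Ultra libraries (HiSeq3000, paired ends). The submitters' processing notes name FastQC, TopHat2 (2.0.13) and HTSeq. The genome build is bosTau7 in the methods and UMD3.1 in the notes, and the gene annotation is not given in the sources used here. The deposited values are whole-number counts per gene, neither normalized nor filtered. Total counts and the share of each heifer are given in the text.

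The milk protein share, CPM and correlations were computed as described in the text (Python 3.11.15, numpy 2.4.6), with a pseudocount of 1. Treatment groups were compared over all genes kept by filterByExpr (14724) with TMM scaling and edgeR's quasi-likelihood test (edgeR 4.0.16, R 4.3.3), with the study's unadjusted cut-off of 0.01 and Benjamini-Hochberg adjustment over all genes tested. The SE of a log2 fold change is its absolute value divided by the square root of the F statistic of that test. DESeq2 (1.42.0), edgeR's exact and likelihood ratio tests, other scalings and filters, and leaving out each heifer were the alternatives. The scripts were tested on simulated data.

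The members and lists were chosen with earlier results of these data known. Genes were to be named by lowest correlation, level, fold, list and P, if they had a symbol, with at most 2 unnamed genes otherwise. No member had a symbol, so gene lists, cell type markers, gene length, GC content and promoter sequences were not examined, and the labelled tissue was not checked against its markers.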

Additional observations from a re-analysis of the deposited data

How the results depend on the processing

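The membership of the set depended on the heifers and the scaling. Of the 200 members, between 80 (without IUHT-H 9204) and 130 (without IUCL-H 9202) were selected again when 1 heifer was left out, and 35 were selected in every such set. Without both heifers farthest from the median share, IUHT-H 9203 and IUHT-H 9204, 37 were selected again. Ranking by Spearman's rho gave 111. TMM-scaled CPM gave 84 and CPM over the whole total 79, but these scales also count the milk protein genes and move the CPM range. With the genes of the range kept, which was chosen after seeing the data, they gave 155 and 113. Between 160 and 200 were selected again with a pseudocount of 0.1, a CPM range of 5 to 1000, no upper CPM limit, or the 20 most abundant genes left out.

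Without IUHT-H 9204, 11 members passed the unadjusted cut-off of 0.01 (225 of 15070 genes). No other setting brought a member past 0.01. With another heifer left out, 38 to 246 genes passed 0.01. Groups were separate in 113 members without IUHT-H 9204, all higher in IUHT-H (9.70% of the CPM range in that direction). In either direction, 9 were separate without IUCL-H 9202 (26.1%) and 3 without IUHT-H 9203 (10.5%). These counts are tied to the selection, and nothing is read from them. The median log2 fold change of the members lay between 0.02 and 0.25 when 1 heifer was left out and between 0.11 and 0.27 under 8 other settings. The highest of these came from library size scaling, which moved the median of all genes to 0.13. ENSBTAG00000032518 had a log2 fold change of -0.0138 with the share as a covariate and between -0.00597 and 0.230 when 1 heifer was left out, below 0 without IUHT-H 9203. ENSBTAG00000024539 had -0.0228 with the covariate. Adjusted p-values did not fall below 0.05 for a member in any setting. The difference in milk protein share lay between -5.13 and -0.25 percentage points when 1 heifer was left out and was -2.30 with the 10 most abundant genes.

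No paired analysis was possible because the numbers of the samples are those of individual heifers and no number is shared between the groups. A share restricted to caseins was not run, since the tables used here do not say which identifiers are caseins. The parts of counting error and of variation between heifers in the spread were not separated.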
